A study of Gallus gallus with 4 samples.

Results

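Violet light was set against normal light in the goggle-covered eyes of chicks, using 2 of the 4 arrays of the series. The scanner file labelled covered under violet light was compared with the one labelled covered under normal light, and the difference is violet minus normal light throughout. The 4 groups were the covered eyes under violet and under normal light, and the fellow eyes, without a goggle, of the same chicks under violet and under normal light. A glass goggle, which induces myopia, was put over the right eye on day 6 after hatching and worn for 7 days, while the left eye had none. The light ran in a cycle of 12 hours on and 12 hours off, and tissue was taken on day 13 as chorioretinal buttons cut from pieces 6 mm wide. The RNA of 4 eyes was pooled for each array, out of 16 eyes of 8 chicks, and the labels name no strain. The 2 lights separate different sets of chicks, each group is 1 array, and no difference below has a replicate check or a p-value.

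The labels of this comparison are disputed between the deposited sources. The column that the authors' table labels covered violet light correlated with the scanner file of uncovered normal light at 0.99974 across 43603 probes, and with the scanner file of its own label at 0.98153. The authors' table thus exchanges the label of the covered violet array with that of the uncovered normal array. Both sources give the covered normal array the same label (0.9995). Directions below follow the scanner files. By the table's labels, the same 2 arrays read as uncovered minus covered eyes under normal light.

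The back of the eye holds the neural retina, whose photoreceptors turn light into signals, the pigment epithelium behind it, and the choroid, a layer of vessels, connective tissue and smooth muscle that feeds the outer retina. In chicks, the retina is known to signal to the choroid and sclera when the image is out of focus, and a covered eye grows too long. Outdoor light in the violet range has been studied as a brake on that growth.

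Signals were compared as log2 of the processed spot signal minus each array's 75th percentile, so that a level is given as a percentage of that percentile. The 75th percentile was 883 on the covered violet array and 797.5 on the covered normal array, and 83.08% and 83.76% of spots were well above background. A probe passed where it was well above background on both arrays with no outlier mark, which held for 35752 of 43603 probes. Of 5294 genes that could be named, 3155 had at least 2 passing probes, 1673 had 1 and 466 had none. A gene counts as lower or higher where the median of its passing probes differed by at least 2-fold, at least 2 probes reached 2-fold, and no probe lay on the other side of 0. Over probes printed 5 times, the SD of the difference between spots was 0.09, which covers measurement error alone. The median SD between the probes of a gene was 0.07, which also holds differences between probes. Neither covers the spread between pools of animals.

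The tissue label was set beside its markers. The titles say retina and the protocol describes chorioretina. All 21 photoreceptor genes, 17 retinal neuron genes and 14 pigment epithelium genes that could be named had a passing probe on both arrays. So did 4828 of all 5294 named genes, among them 30 of 35 striated muscle genes and 14 of 16 crystallin and lens genes. These counts thus do not tell one tissue from another. Probes of genes on the female-specific chromosome W, which would move with the share of female chicks, had a median difference of 0.05 in covered and 0.16 in uncovered eyes (29 probes).

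Violet light went with lower, not higher, signal among genes whose probes agreed. Of 3155 genes, 43 were at least 2-fold lower in covered eyes under violet light (1.36%) and 0 were at least 2-fold higher (0.0%). They were led by fast skeletal muscle genes, followed by collagens and other matrix proteins. Over single probes, named or not, 475 were at least 2-fold lower (1.33%) and 39 higher (0.109%). The middle 95% of the 3155 genes lay between -0.76 and 0.26, and their median was 0.02. Scaled on 8 E1A spike-in probes instead, the whole distribution lay 0.30 higher on the log2 scale, with 30 genes lower and 3 higher, and 296 probes lower and 181 higher. The lower genes were dim: 33 of the 43 lay below the median level of all passing probes. With normexp background correction, which pulls dim signals together, 20 of the 43 still counted, and all 43 stayed below 0.

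**Figure D1:**
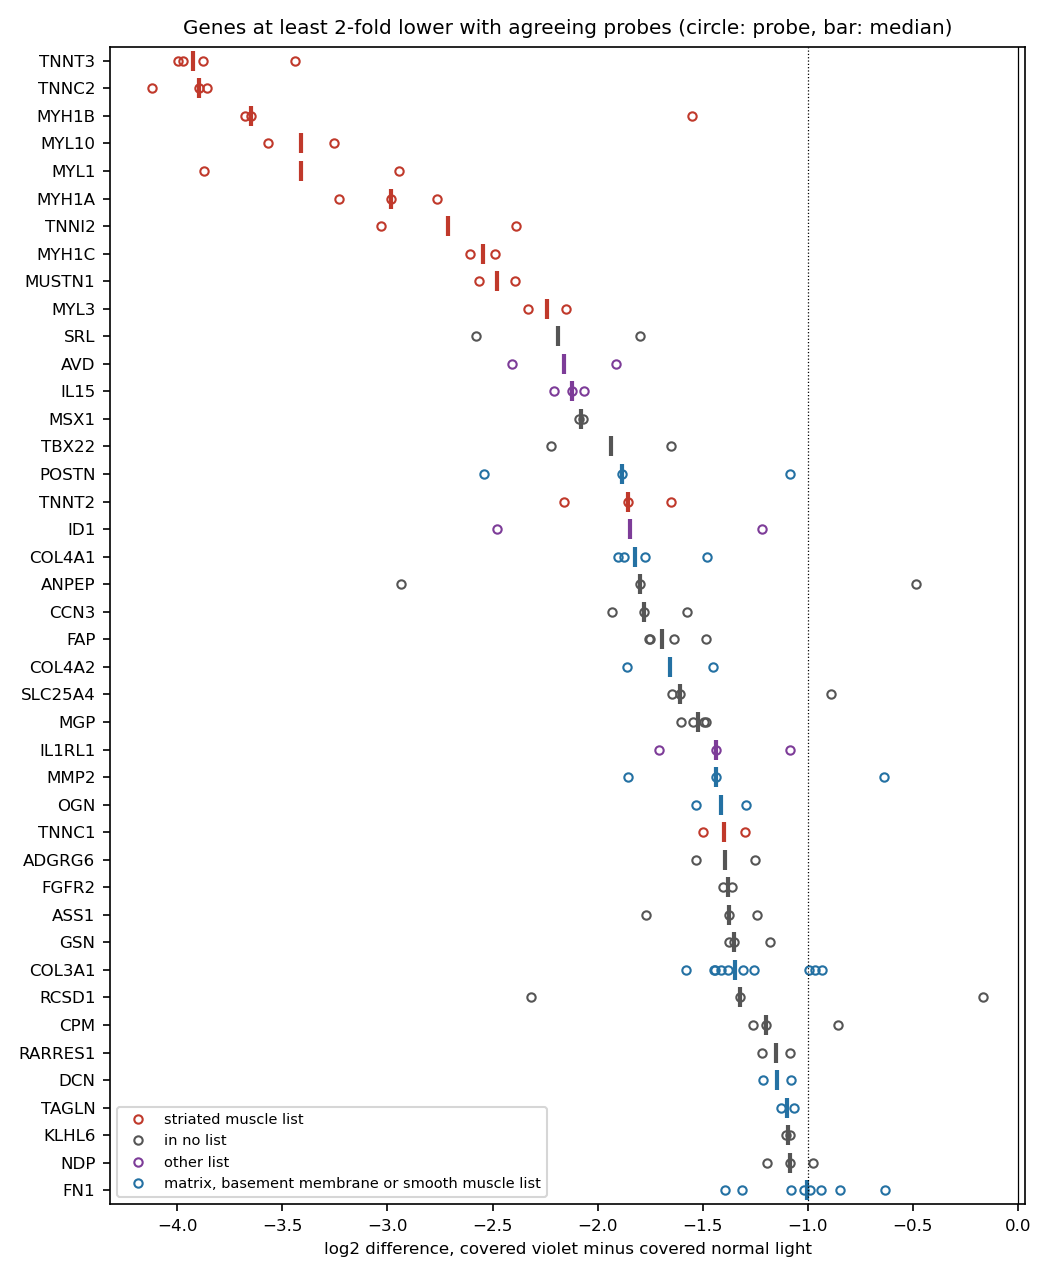
Each row is 1 of 42 of the 43 genes at least 2-fold lower in covered eyes under violet light, each circle 1 passing probe and each bar the median of the gene, against the log2 difference of violet minus normal light. The dotted line marks 2-fold. In 34 of these genes every probe lies beyond it, while RCSD1, ANPEP and MYH1B each have a probe far from the others.

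Muscle contractile genes had the largest differences. Of 22 measured members of the striated muscle list, 12 were at least 2-fold lower and none higher (54.5%, against 1.36% of all genes), and the list median was -1.63. TNNC2, the calcium-binding subunit of fast troponin, read 49.1, 14.2 and 15.1% of the 75th percentile in the covered violet pool on its 3 probes, against 855.2, 206.3 and 224.6% in the covered normal pool. Every probe was thus far lower under violet light, with a median difference of -3.90 (SD between probes 0.14, 14.9-fold). TNNT3, the subunit that ties fast troponin to the thin filament, read 18.7, 11.9, 3.71 and 7.62% in the violet pool, against 274.7, 186.4, 59.3 and 82.5% in the normal pool. Its median difference was -3.93 (SD 0.26).

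Both light chains and heavy chains of myosin, the motor of the sarcomere, followed. The light chain MYL10 read 15.9 and 21.2% in the violet pool, against 152.2 and 251.2% in the normal pool (-3.41). MYL1 differed by -3.41 and MYL3 by -2.24. The heavy chains MYH1B, MYH1A and MYH1C differed by -3.65, -2.98 and -2.55, but probes for such closely alike genes may cross-hybridise, so the separate values are uncertain. TNNI2, the inhibitory troponin subunit, differed by -2.71, and MUSTN1, a small protein of muscle and skeleton, by -2.48. The slow and cardiac troponin genes TNNT2 (-1.86) and TNNC1 (-1.40) differed less.

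Probes of some muscle genes disagreed. The 2 passing probes of the slow myosin MYH7 differed by -2.76 and 0.13, and those of the cardiac actin ACTC1 by -2.55 and 0.12, so neither counts. ACTN2, the actinin that anchors thin filaments, had 5 probes between -0.06 and 0.03, and PVALB, a calcium buffer also made by neurons, differed by -0.11. Of 8 muscle genes with 1 passing probe, 5 were at least 2-fold lower and 0 higher. Of all 1673 single-probe genes, 60 were lower (3.59%) and 3 higher (0.179%). CKMT2, the muscle mitochondrial creatine kinase, was at 8.51% in the violet pool against 242.0% in the normal pool (-4.83). MYL2, another myosin light chain, had 6.55% against 87.6% (-3.74), and OCM3, a calcium-binding parvalbumin, 9.44% against 133.1% (-3.82). MYOD1, the factor that commits cells to muscle, had 5.09% against 24.2% (-2.25), and myoglobin (MB), the oxygen store of muscle, 2.45% against 10.2% (-2.06). The other 3 were the myosin MYH7B (-0.80), the calcium release channel RYR3 (-0.01) and MYOG, a factor of muscle differentiation that lay above 0 (0.64). The summed level of the 22 measured muscle genes was 1059% in the covered violet pool and 2684% in the covered normal pool. In the uncovered violet and normal pools it was 952.7% and 1122%. The sum includes bright genes that barely differed, such as ACTN2, whose middle probe read 295.1% in covered violet and 293.2% in covered normal eyes. The labels state that tissue outside the eye was cleaned off, and how much muscle each button held was not tested. In pooled tissue, fewer cells of a type and less RNA per cell cannot be told apart.

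Across all 4 arrays, the muscle genes stood out in the covered normal pool, whose label is not disputed. In all 11 muscle genes of the 43 with a level on every array, the covered normal pool lay at least 2-fold above each of the other pools, and the covered violet pool lay above both uncovered pools. TNNC2, for instance, had medians of 15.1% in covered violet and 224.6% in covered normal eyes, against 1.20% in uncovered violet and 2.38% in uncovered normal eyes. Of the 31 other genes, 10 had the covered normal pool at least 2-fold above each other pool. In 24, both normal-light pools lay above both violet-light pools by any margin, and in 5 by at least 2-fold. Apart from the covered normal and uncovered violet pools, these names rest on the scanner labels. By the table's labels, the same 24 genes had both covered pools above both uncovered pools. The 43 genes were chosen for being at least 2-fold higher in covered normal than in covered violet eyes. That part of each count was thus fixed by the choice, and the same counts over all genes were not taken.

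**Figure D2:**
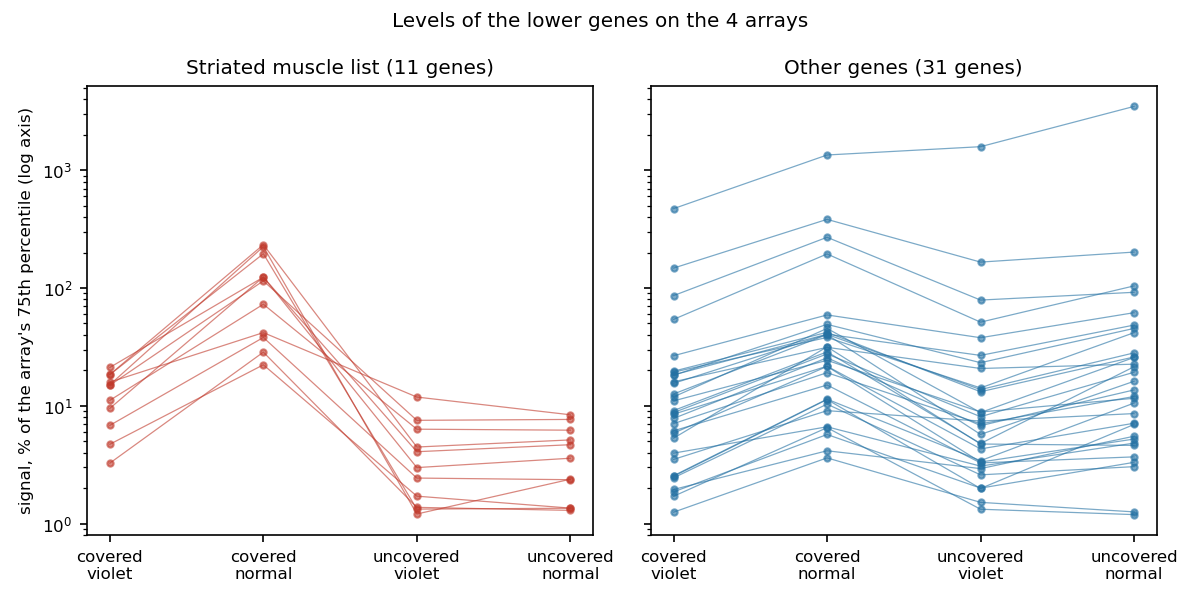
Each line is 1 of the genes lower under violet light in covered eyes, on the left 11 genes of the striated muscle list and on the right 31 others, with the signal on each of the 4 arrays as a percentage of the array's 75th percentile on a log axis. The muscle genes peak in the covered normal pool. In 24 of the 31 others, both normal-light pools lie above both violet-light pools by any margin, and in 5 by at least 2-fold, as the scanner files label them.

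Genes of vessel walls and connective tissue were the next group. COL4A1 and COL4A2 encode the paired chains of type IV collagen, the mesh of basement membranes under endothelium and pigment epithelium. COL4A1 read 3.31, 75.5, 24.1 and 6.58% in the violet pool, against 12.4, 258.0, 88.4 and 18.3% in the normal pool, a median difference of -1.82 (SD between probes 0.19). COL4A2 read 12.5 and 6.65%, against 45.3 and 18.2% (-1.66). Both chains were lower by similar amounts on all of their passing probes. The other 3 measured members of the basement membrane list stayed under 2-fold, with the laminin LAMA1 at -0.36 and LAMB2 at -0.25. In all, 2 of 5 counted as lower (40.0%, against 1.36% of all genes). COL18A1, of the same list but with 1 probe, differed by -1.45.

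All 20 measured members of the fibroblast and interstitial matrix list lay below 0, where 57.7% of all genes lay above it. Their median was -0.80, and 6 (30.0%, against 1.36% of all genes) were at least 2-fold lower. The highest was at -0.07, so on the spike-in scale, 0.30 higher, not all lay below 0. POSTN, a matricellular protein of growing connective tissue, differed by -1.88, the gelatinase MMP2 by -1.44, the small proteoglycans OGN and DCN by -1.41 and -1.15, and fibronectin (FN1) by -1.003. COL3A1, a fibrillar collagen of vessel walls, differed by -1.35 over 10 probes, all of them below 0 (SD 0.23). Below 2-fold, COL6A3, COL1A2 and SPARC differed by -0.85, -0.84 and -0.79. MGP, an inhibitor of calcification made by vessel walls and cartilage, was bright on 4 probes, at 613.9, 415.4, 537.2 and 284.9% in the violet pool against 1862, 1160, 1569 and 802.6% in the normal pool (-1.52, SD 0.05). FAP, a surface protease of activated fibroblasts, differed by -1.69 on 4 probes, and the matricellular CCN3 by -1.78 on 3.

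Smooth muscle and endothelial genes lay below 0 without passing 2-fold in most cases. TAGLN, an actin-binding protein of smooth muscle, differed by -1.098 and was the only one of 4 measured members that counted. ACTA2, of the same list but with 1 passing probe, differed by -1.21. The smooth muscle myosin MYH11 fell just short, at -0.97 over 7 probes. All 6 measured endothelial genes were below 0 (median -0.58), where 57.7% of all genes lay above 0, and 0 of 6 counted. The highest gene of the endothelial list (-0.04) and of the smooth muscle list (-0.26) lay above 0 on the spike-in scale. The ETS factor FLI1 differed by -0.95 and -1.78 on its 2 probes. CLDN5, the tight-junction protein of vessels, had 4 probes from -2.30 to 0.19, among the widest gaps of all genes. KDR, the main receptor for VEGF, differed by -0.04. Of 6 endothelial genes with 1 passing probe, 4 were at least 2-fold lower, against 60 of all 1673 single-probe genes (3.59%). EDNRB, an endothelin receptor, had 5.54% in the violet pool against 80.0% in the normal pool (-3.85), SOX18 12.7% against 50.4% (-1.99) and CDH5, the cadherin of endothelial junctions, 4.66% against 16.9% (-1.85). LYVE1, a receptor of lymphatic vessels, differed by -1.19, the gap junction protein GJA5 by -0.66 and the VEGF receptor FLT1 by -0.22. With no second probe, these 6 have no check within the arrays. The same holds for FGL2, a fibrinogen-like protein of immune cells, at 2.93% against 81.1% (-4.79), and OTOS, known from the inner ear, at 54.6% against 750.3% (-3.78).

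Some lower genes encode transcription factors or parts of growth signalling, and no list was made for them as a group. MSX1, a homeobox factor of neural crest tissue, read 3.50 and 1.70% in the violet pool, against 14.7 and 7.25% in the normal pool (-2.08, SD 0.01). The T-box factor TBX22 differed by -1.94 on dim probes, at 1.21 and 2.40% against 5.64 and 7.54%. ID1, a target of BMP signalling that blocks differentiation factors, read 43.1 and 68.0%, against 240.1 and 157.9% (-1.85). It was the only one of 14 measured BMP and TGF-beta genes that counted (7.14%, against 1.36% of all genes), and its relative ID3 differed by -0.53. FGFR2, a receptor for fibroblast growth factors, differed by -1.38, and NDP, the Wnt receptor ligand norrin that retinal vessels need, by -1.08 on 3 probes.

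A few immune and secreted proteins were also lower. IL15, a cytokine for lymphocytes, read 1.44, 4.20 and 1.51% in the violet pool, against 6.02, 18.3 and 6.97% in the normal pool (-2.12, SD 0.07). IL1RL1, the receptor for interleukin 33, differed by -1.44. IL15 and IL1RL1 were the 2 of 8 measured macrophage and leukocyte genes that counted, where 1.36% of all genes were lower. The list median was -0.45, with 7 genes below 0 and 1 above it, at 0.02. Immune genes with 1 passing probe lay on both sides of 0. For instance, PTPRC, LYZ and CD8A differed by 0.54, 0.52 and 0.39, and FGL2, TIMD4 and CD3D by -4.79, -0.98 and -0.88. CTSS and CD74, of antigen presentation, differed by -0.56 and -0.35. CD36, a scavenger receptor, had probes at -1.77, -1.81 and 0.04 and did not count. Avidin (AVD), a biotin-binding egg-white protein made in inflamed chicken tissue, had 5.89 and 1.101% against 31.2 and 4.15% (-2.16). Of the lower genes outside every list, 18 in all, SRL, a calcium-binding protein of the muscle reticulum, had one of the largest differences (-2.19). ANPEP, a surface aminopeptidase, differed by -1.80, SLC25A4, the mitochondrial carrier of adenine nucleotides, by -1.61, ASS1, an enzyme of arginine synthesis, by -1.38, and GSN, an actin-severing protein, by -1.35. ADGRG6, an adhesion receptor, differed by -1.39, the carboxypeptidase CPM by -1.20, RCSD1, an actin-capping regulator, by -1.32, RARRES1, a retinoid-responsive gene, by -1.15, and KLHL6, a gene of B cells, by -1.09. Nearest to the threshold were FN1 (-1.003) and NDP (-1.08) inside it, and CLIC2 (-0.98) and MYH11 (-0.97) outside.

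**Figure D3:**
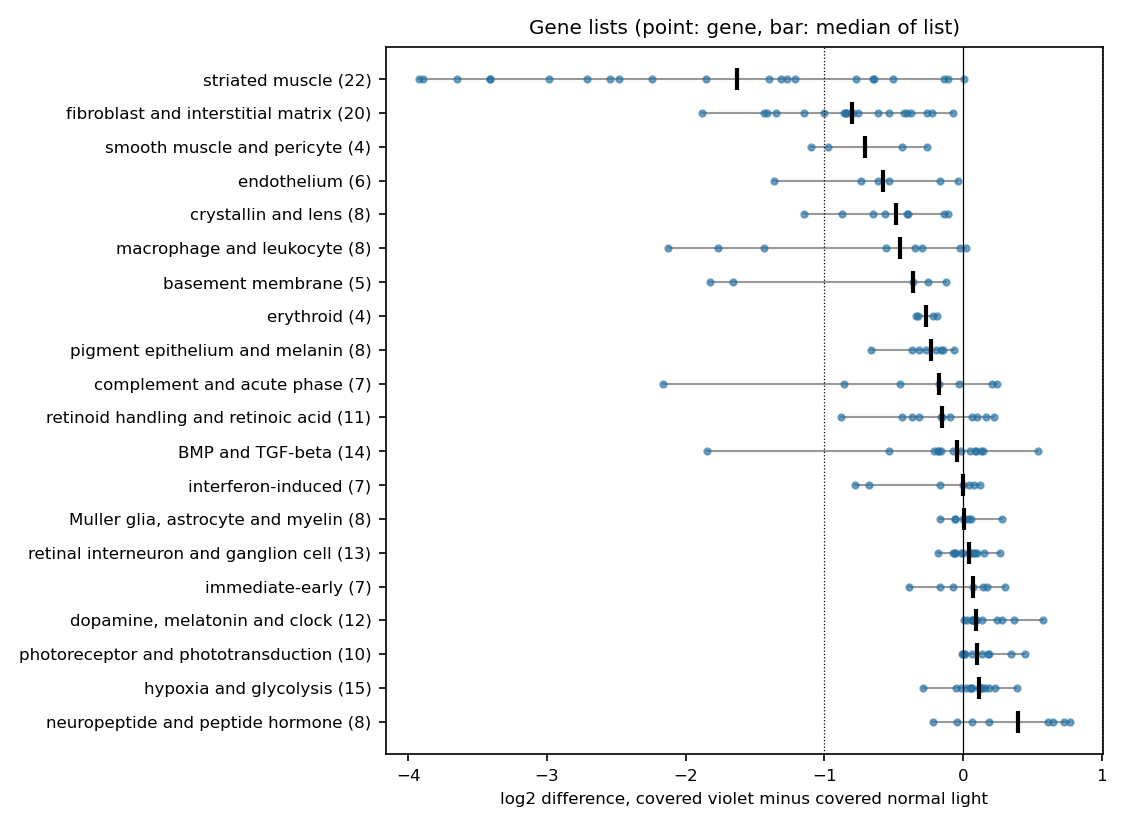
Each point is a gene with at least 2 passing probes, placed by its log2 difference of violet minus normal light in covered eyes, and each row is a gene list with the number of measured genes in brackets and its median as a bar. The striated muscle median lies at -1.63 and the matrix median at -0.80, while the medians of photoreceptor, neuron and glia genes lie at 0.10, 0.04 and 0.01.

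Genes of the neural retina differed little, as did most genes. Of 10 photoreceptor genes, 13 interneuron and ganglion cell genes and 8 glial genes measured on 2 or more probes, none reached 2-fold. Of all 3155 genes, 1.36% were lower and 0.0% higher, so a count of none in lists this small does not set them apart. CNGA3, the cone channel, and GRK7, the cone opsin kinase, differed by -0.01 and 0.003, and the rod phosphodiesterase subunit PDE6G by 0.45. The glial enzyme GLUL differed by 0.02. All 8 measured pigment epithelium genes lay below 0, led by the melanin-synthesis gene TYRP1 (-0.66), with a median of -0.23, which becomes 0.07 on the spike-in scale. TYR, of the same list but with 1 probe, differed by more, at 24.6% in the violet pool against 54.2% in the normal pool (-1.14). All 12 dopamine, melatonin and clock genes with 2 or more passing probes lay above 0, the lowest at 0.008. Their median was 0.09, and 57.7% of all genes lay above 0. Genes of this kind with 1 passing probe lay on both sides, with DRD2 and CRY2 each at -0.11, and AANAT and PER3 at 0.25 and 0.11. The melatonin receptor MTNR1A differed by 0.58, GCH1, which makes a cofactor for dopamine synthesis, by 0.37 and the melanopsin OPN4 by 0.28.

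The remaining lists had few or no genes at 2-fold, where 1.36% of all genes were lower and 0.0% higher. All 15 hypoxia and glycolysis genes stayed under it, 12 of them above 0 (median 0.11), led by the hexokinase HK2 at 0.39. Among 7 interferon-induced genes, IFI6 and IRF1 differed by -0.78 and -0.68 and the median was 0.002. Among 11 genes of retinoid handling, the lipoprotein APOA1, which chick choroid is known to express, differed by -0.88 and ALDH1A2, which makes retinoic acid, by -0.44 (median -0.15). All 4 measured erythroid genes lay between -0.34 and -0.19, with the globins HBA1 and HBBA at -0.34 and -0.33 (median -0.27). The complement and acute-phase list had a median of -0.17 over 7 genes, with AVD its lower gene and SERPINF1, an anti-angiogenic factor of pigment epithelium, at -0.86. The BMP and TGF-beta list had a median of -0.04, and FST, which binds activins, differed by 0.54. The medians of the erythroid, complement, retinoid and BMP lists lay above 0 on the spike-in scale. All 8 measured crystallin and lens genes lay below 0, where 57.7% of all genes lay above it. Their median was -0.48, and none counted as lower. The highest of them (-0.11) lay above 0 on the spike-in scale.

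Neuropeptides made up most of the higher genes, all under 2-fold. At 1.5-fold, 6 of 3155 genes were higher (0.19%) and 92 lower (2.92%). The 6 were GNRH1, CALCA, GCG, SST1, ERNI and VIP, and 4 of them belong to the 8 measured genes of the neuropeptide list. GNRH1, the reproductive releasing hormone, was singled out after its values were seen. It read 146.2 and 98.6% in the violet pool, against 76.2 and 52.0% in the normal pool (0.93, SD 0.01). CALCA, the gene of calcitonin and its related peptide, read 3.62, 14.96 and 2.41%, against 2.12, 6.74 and 1.48% (0.77). After normexp background correction CALCA differed by 0.10. GCG, the precursor of glucagon, a peptide of chick amacrine cells tied to eye growth, read 126.2 and 67.6%, against 77.1 and 40.6% (0.72). VIP, another amacrine peptide, read 186.5 and 114.0%, against 123.2 and 74.2% (0.61). SST1, a somatostatin gene, differed by 0.65, while CCK differed by -0.22 and NPY by 0.06.

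TH, the rate-limiting enzyme of dopamine synthesis in amacrine cells, had 1 probe, at 20.1% in the violet pool against 9.12% in the normal pool (1.14). BMP4, a growth factor of the retina and pigment epithelium, had 1 passing probe, at 4.75% against 2.29% (1.05). They were among the 3 of 1673 single-probe genes that were at least 2-fold higher (0.179%), against 60 that were lower (3.59%). EGR1, an immediate-early factor long studied in chick retina as a signal of eye growth, read 9.27 and 10.2% in the violet pool, against 7.93 and 7.89% in the normal pool (0.30). The other 6 measured immediate-early genes also stayed under 2-fold, where 1.36% of all genes were lower and 0.0% higher.

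Probes well above background on only 1 of the 2 arrays were left out above and give bounds. Such a probe was picked for being bright on 1 array, so its direction was largely set by that filter. The bounds below are therefore no further check on the lower genes. There were 758 such probes in the normal pool alone, 164 of them at least 2-fold brighter there, and 459 in the violet pool alone, 20 of them at least 2-fold brighter. Each bound sets the bright signal against the higher of the dim probe's own signal and the lowest signal that was well above background on the dim array. FABP4, a fatty acid carrier of fat cells and vessel endothelium, was not well above background on any of its 3 probes in the violet pool, and was at least 12.2-fold, 23.0-fold and 39.9-fold lower there. CFC1, a coreceptor for nodal signals, was at least 21.7-fold and 40.0-fold lower on its 2 probes. Counting probes with a bound, and without the rule on the median, 16 further genes had 2 or more probes at 2-fold in one direction. All of them were lower under violet light, among them CKMT2, CPA6, GPER1 and the drug transporter ABCB1. The 16 include genes that the main rule leaves out, such as COL1A2, with 1 of 4 passing probes at 2-fold, and SOX17, with a median of -0.74. Among transcripts without a gene name, 30 of 4262 with at least 2 passing probes were lower and 1 was higher by the main rule. Among named genes, 43 of 3155 were lower (1.36%) and 0 higher.

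In uncovered eyes, where the pair of pools shares no array with the covered pair but comes from the same chicks, 21 of 3191 genes were lower (0.658%) and 16 higher (0.501%) under violet light. This pair holds the other disputed array, so its reading as a light difference also rests on the scanner labels. By the table's labels, both pairs read as uncovered minus covered eyes, this one under violet light and the covered pair under normal light. Of the 43 genes lower in covered eyes, 37 had 2 or more passing probes in the uncovered pair. Among the muscle genes, the median difference was -0.08 in uncovered eyes, with 6 of 10 below 0. Among the others it was -0.91, with 26 of 27 below 0, against 40.6% of all genes measured in both pairs. The difference between the pairs could not be tested with 1 array a group. The muscle genes were dim in uncovered eyes, so their differences there are less certain. In uncovered violet and normal eyes, MYL10 had 1.33 and 1.35% of the 75th percentile, TNNC2 1.20 and 2.38%, and TNNC1, the brightest, 11.9 and 8.39%. The 8 genes lower by at least 2-fold in both pairs were TNNC2, COL4A1, CCN3, MGP, COL4A2 (-1.66 in covered, -2.09 in uncovered eyes), IL15 (-2.12 and -1.81), AVD (-2.16 and -1.62) and COL3A1 (-1.35 and -1.42). GSN, MSX1 and NDP differed by -1.35, -2.08 and -1.08 in covered eyes and by -0.16, -0.23 and -0.06 in uncovered eyes.

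**Figure D4:**
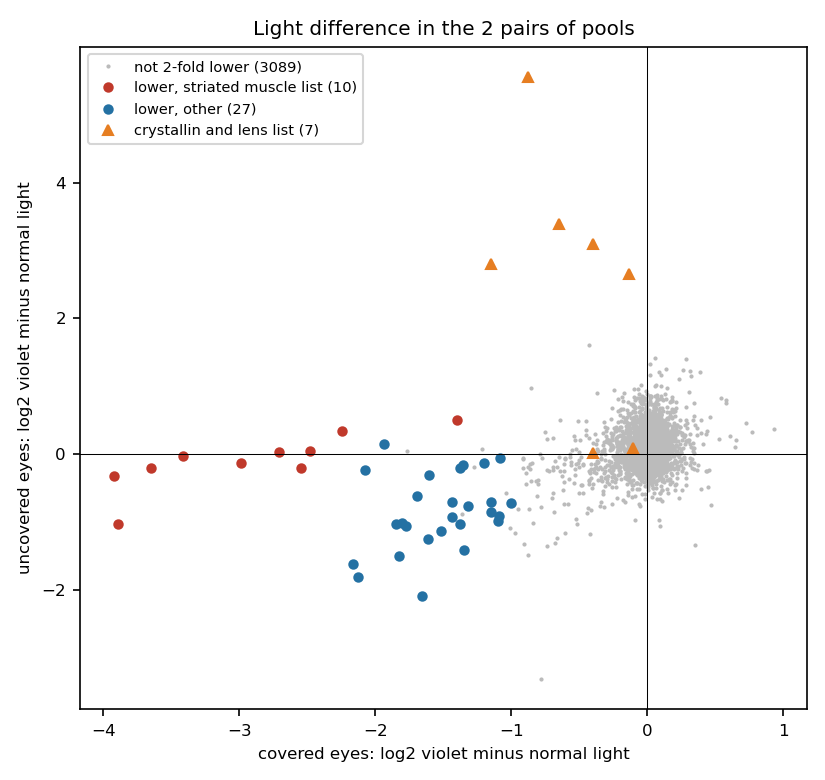
Each point is a gene with at least 2 passing probes in both pairs, with the log2 difference of violet minus normal light in covered eyes on the horizontal axis and in uncovered eyes on the vertical axis. Both axes follow the scanner labels. The muscle genes have a median of -0.08 on the vertical axis, with TNNC2 (-1.03) and TNNC1 (0.50) away from 0, most other lower genes lie below 0 on both, and 5 crystallin genes lie high on the vertical axis alone.

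With the 2 disputed labels exchanged, the comparison uses the array that the scanner files call uncovered normal light. Then 79 genes were lower and 12 higher, and 20 of the 43 still counted as lower. In the authors' deposited table under its own labels, the counts from the deposited values were 37 and 24, with 18 of the 43 among the lower genes. The same 18 counted under the exchanged scanner labels, and they were 11 muscle genes with SRL, MSX1, TBX22, POSTN, COL4A1, SLC25A4 and GSN. TH was higher under each labelling, by 1.14 with the scanner labels, 1.17 with labels exchanged and 1.48 in the authors' deposited table. Its only probe read 9.12% in covered normal eyes, against 20.1% in covered violet, 20.9% in uncovered violet and 20.5% in uncovered normal eyes. Each labelling uses that same covered normal array, and the last 2 use the same pair of arrays. Agreement across labels, for TH and for the 18 genes, is thus not a separate check. The neuropeptide differences were mostly smaller after the exchange: the probes of GNRH1 differed by 0.09 and 0.28, those of GCG by 0.23 and 0.36, those of VIP by 0.11 and 0.68, those of CALCA by 0.29, -0.31 and 0.34, and those of SST1 by 0.39, -0.16 and 0.75. The size of the EGR1 difference moved with the labels: it was 0.30 with the scanner labels, 1.44 with labels exchanged and 1.75 in the authors' deposited table. The differences of MGP, DCN, KLHL6 and RARRES1 changed sign after the exchange, to 1.37, 0.26, 0.41 and 0.06, and of these 4 MGP alone exceeded 2-fold. SOX18 and CDH5, at -1.99 and -1.85, differed by 0.78 and -0.15 after it.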

How the data were processed

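Feature Extraction 11.5.1.1 by Agilent produced the spot values of the 1-colour arrays, per the file headers. Each deposited scanner file holds processed spot intensity, with background removed and no scaling between arrays, and marks for control spots, background, saturation and outliers (another unit, as deposited). The value table deposited by the authors has intensity on a linear scale, and how it was normalized is not stated in the labels. No column of per-sample values belongs to another series.

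Here, with Python 3.11.15 and R 4.3.3 (limma 3.58.1), repeated spots of 43803 were averaged to 43603 probes, and log2 signals were centred on each array's 75th percentile. Probes were named by unversioned RefSeq accession against genes of assembly GRCg7b, which named 11711 probes and left 31892 unnamed. The array design uses an older build, so no coordinates are given. No spot was saturated, and 12 probes had an outlier mark on a covered array. With 1 array a group no test was possible, and the number of arrays limits the precision. The rule for counting genes was also run on simulated data, with planted differences all beyond 2-fold and no spread between pools. That run checks the counting alone and says nothing on spread between animals. Genes named are the 15 lowest counted, up to 4 with the largest differences in each of 20 lists, 7 fixed genes, those whose probes lie furthest apart, those opposite in uncovered eyes and those nearest the threshold. Others are examples of a count, chosen after their values were seen. The genes and lists were chosen with earlier results of these data known. Alternatives were other scalings, background correction, filters, probe rules, fold thresholds and labels. The scaling on spike-in probes and the count without muscle genes were chosen after seeing the data. Some genes that met these rules are not reported here.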

Additional observations from a re-analysis of the deposited data

Results flagged for a closer look

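The results listed here had light differences, by the scanner labels, of opposite signs in covered and uncovered eyes, beyond 2 SD of the spot error in each. That error covers repeated printing of a probe alone and not the spread between pools of animals, which is unknown here. The difference between the pairs was not tested, since each group is 1 array. Each gene listed also counted as lower or higher in at least 1 of the pairs. Other genes had opposite signs beyond that error too. Examples are PDE6G (0.45 in covered and -0.48 in uncovered eyes) and TF, of the complement and acute-phase list (-0.45 and 0.36). The uncovered differences use the disputed uncovered normal array. By the table's labels, they read as uncovered minus covered eyes under violet light. The median of the crystallin and lens list was -0.48 in covered and 2.81 in uncovered eyes. Its members ASL1, CRYBA2 and CRYBB1 differed by -1.15, -0.87 and -0.65 in covered eyes, and by 2.81, 5.55 and 3.39 in uncovered eyes. CRYBA2 read 84.7 and 35.1% of the 75th percentile in covered violet eyes and 181.4 and 55.1% in covered normal eyes, against 615.8 and 225.8% in uncovered violet eyes and 9.06 and 6.95% in uncovered normal eyes. The muscle genes MYL3 and TNNC1 differed by -2.24 and -1.40 in covered eyes, and by 0.34 and 0.50 in uncovered eyes. MYL3 was dim in uncovered eyes, and its 2 probes there differed by 0.11 and 0.57.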

How the results depend on the processing

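Each group is 1 array of 4 pooled eyes, so spread between animals is unknown, and dim probes limit the folds of the lower genes. No paired analysis was possible because each group is 1 array. Median scaling, quantile normalization, cyclic loess and the authors' table with columns matched to the scanner files gave 41 or 42 lower genes and 0 higher, all among the 43. Those 43 genes stayed below 0 under every scaling and background correction tried with the scanner labels. Normexp correction, run on the median spot signal because the files read here hold no mean, gave 20 lower genes (16 of them list members), with 185 lower and 3 higher probes, 188 in all. Brighter probes alone gave 11 lower genes (8 in lists), and 88 lower and 4 higher probes, 92 in all. Without a background filter there were 64 lower and 4 higher genes (68), and 1271 lower and 595 higher probes (1866). With 1 probe a gene there were 118 lower and 4 higher (122, of which 56 in lists). Asking for signal on all 4 arrays, the mean of probes, every probe at 2-fold, no agreement, or leaving out the muscle list gave 35, 44, 34, 52 and 31 lower genes and 0 higher. At 1.5-fold there were 92 and 6 (98), and at 4-fold 12. Spike-in scaling gave 3 higher genes, and 296 lower and 181 higher probes. The table's own labels gave 24 higher genes, and 1442 lower and 1030 higher probes (2472). Exchanged labels gave 79 lower and 12 higher genes (91), and 3653 and 403 probes (4056). Of the 43 genes, MGP, DCN, KLHL6 and RARRES1 turned in direction with labels exchanged (1.37, 0.26, 0.41 and 0.064). In the table they did so too (1.36, 0.42, 0.82 and 0.13), as did AVD and IL1RL1 (0.040 and 0.19). Differences of some genes outside the 43 also crossed 0 over the alternatives, labels among them. Examples are IFI6 (-0.78 to 5.44), IRF1 (-0.74 to 1.68), APOA1 (-0.90 to 1.02) and HK2 (-1.30 to 0.69). With labels exchanged, the array that the scanner files call uncovered normal light stands in for covered violet. The 2 probes of IFI6 read 435.0 and 402.0% on it, against 6.43 and 5.69% on the scanner's covered violet array. The cause of such differences between arrays was not tested.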
